A study of Saccharomyces cerevisiae with 3 samples.

Results

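Ergosterol is the main sterol of fungal membranes, the counterpart of cholesterol in animals. Its synthesis runs from acetyl-CoA through mevalonate to farnesyl pyrophosphate, from there through squalene to lanosterol, the first sterol, and then through a series of demethylation, isomerisation, desaturation and reduction steps to ergosterol. In budding yeast the transcription factors Upc2 and Ecm22 activate many genes of the route when sterols are low, several steps need oxygen and haem, and surplus sterol is stored as steryl esters. The 32 genes described here were chosen by name for their known roles as enzymes, electron donors, storage enzymes and regulators of this pathway, by a rule that uses no measured value, though the list was drawn up with earlier results of these data known. Of the 32 genes, 30 matched a named spot, and HMG2 and ERG11 did not and were not analysed here. The 30 are among 5203 named genes in all. A value on all 3 arrays was given for 25 members, and these were tested together with all 3039 genes that had one. The other 5 had values on 2 arrays.

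The study exposed Saccharomyces cerevisiae strain S288C, growing exponentially at 25 °C in the rich glucose medium YPD, to 5 mM 2-aminobenzimidazole for 2 h, and compared each exposed culture with an untreated culture of the same strain grown for the same time. Each of the 3 two-colour arrays carried messenger RNA of an exposed culture in Cy5 and of a control culture in Cy3, from independent biological samples per the series, and 0 arrays had the dyes exchanged, so a dye effect and the exposure cannot be told apart. The labels name no solvent for the chemical stock and none added to the controls, so an effect of the solvent cannot be told apart from one of the compound. 2-Aminobenzimidazole is the amine from which the benzimidazole carbamate fungicides, such as carbendazim, formally derive.

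Values are log ratios, read here as log2 of treated over control. That direction is likely, since the labels list the treated RNA as the first channel, but it is not written in the table, and with the other direction higher and lower would change places throughout. Base 2 is the customary choice and is not stated either, and fold changes rest on it. Array 1 had values for 3062 named genes, against 5044 and 5158 on arrays 2 and 3. The title of array 1 also carries a letter H, unexplained and absent from the titles of arrays 2 and 3. Across the 3039 genes, the Pearson r was 0.748 between arrays 1 and 3 (Spearman rho 0.683), 0.52 between arrays 1 and 2 (0.529) and 0.468 between arrays 2 and 3 (0.48), a description over genes that are not independent of each other. Calls came from limma, which tests each gene's mean log2 ratio against 0 with a variance moderated across genes, at a Benjamini-Hochberg adjusted p below 0.05 over the 3039 genes.

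Among the 25 tested members 2 were lower after exposure, and 0 were higher. The lower genes were NSG1, which encodes a membrane protein that stabilises the HMG-CoA reductase Hmg2, and ERG7, which encodes lanosterol synthase. Of all genes tested 9.64% were called lower and 8.36% higher, so 2 of 25 (8.0%) is close to the background of lower calls. At an unadjusted p below 0.05, 5 members were lower (20.0%, against 19.8% of all genes) and 1, ARE1, was higher (4.0%, against 16.3%). A mean change of at least 2-fold was seen for NSG1 and ERG7 downward (11.0% of all genes) and for 0 members upward (10.9% of all genes), and 0 members were at least 2-fold higher on all 3 arrays (3.78% of all genes). The share of tested members below 0 was 88.0% on array 1, 52.0% on array 2 and 76.0% on array 3, against 52.9%, 52.6% and 51.0% of all genes. The median of the members' mean log2 ratios was -0.23, against -0.04 for all genes tested. The means of 21 of the 25 members (84.0%) lay below 0, against 52.3% of all genes. Without array 1 it was 17 of 25 (68.0%), against 51.0% of all genes. The 95% limma interval of 12 members (48.0%) lay inside a 2-fold change in either direction, against 28.4% of all genes.

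**Figure D1:**
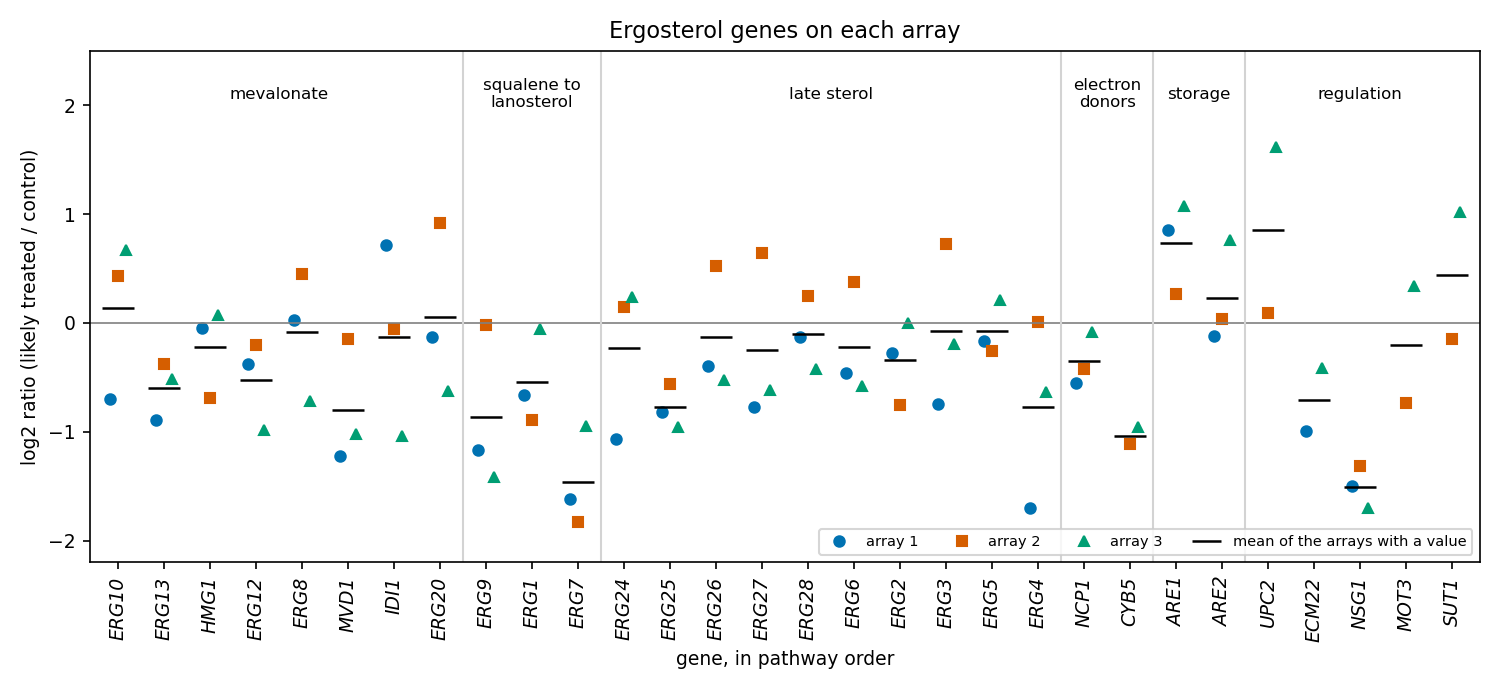
Log2 ratio (likely treated over control, vertical axis) of the 30 ergosterol genes with a value, in pathway order, with a symbol for each array and a bar at the mean of the arrays with a value. NSG1 and ERG7 lie well below 0 on all 3 arrays, while many late sterol genes are below 0 on arrays 1 and 3 and above 0 on array 2.

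NSG1 (YHR133C) had log2 ratios of -1.50, -1.31 and -1.70 on arrays 1, 2 and 3. All 3 arrays gave a decrease of more than 2-fold, which held for NSG1 alone among the tested members and for 3.75% of all genes. Its mean was -1.50 ± 0.19 (SD, n = 3; 2.84-fold lower; 95% interval -2.13 to -0.88; adjusted p = 0.0169, limma), and it stood at percentile 3.2 of the means of all genes tested. In RNA from whole cultures, a change in the make-up of the cells and a change per cell cannot be told apart. ERG7 (YHR072W) gave -1.62, -1.83 and -0.95. These values too were below 0 on every array, and array 3 gave the smallest decrease. The mean of ERG7 was -1.47 ± 0.46 (SD, n = 3; 2.76-fold lower; 95% interval -2.15 to -0.78; adjusted p = 0.0213, limma), at percentile 3.4. Both calls were lost when array 1 was left out (adjusted p = 0.168 for NSG1 and 0.18 for ERG7, limma) or array 3 (0.124 and 0.117), fits in which 0 of the 3039 genes passed, while both means stayed at -1.39 or lower. Without array 2 both remained called (adjusted p = 0.00845 and 0.0236, limma).

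NSG2, the paralog of NSG1, stood on the other side of 0. It was picked out after its values were seen. Its log2 ratios were 0.53, 1.14 and 1.34, with a mean of 1.00 ± 0.42 (SD, n = 3; adjusted p = 0.0516, limma), just outside the threshold. On every array NSG2 was above NSG1, by 2.03, 2.45 and 3.04, a mean difference of 2.51 ± 0.51 in log2 ratio (SD, n = 3). This difference was not tested.

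The mevalonate steps had 8 tested genes, of which 0 passed the threshold, beside 9.64% called lower and 8.36% higher among all genes. Their median log2 ratio was -0.25 on array 1, -0.10 on array 2 and -0.67 on array 3. MVD1 (YNR043W), mevalonate pyrophosphate decarboxylase, had the lowest mean of these genes, with -1.22, -0.15 and -1.02 on the 3 arrays. Its mean was -0.80 ± 0.57 (SD, n = 3; adjusted p = 0.114, limma), and without array 2 it was -1.12 and was called (adjusted p = 0.0309, limma). ERG13 (YML126C), HMG-CoA synthase, gave -0.90, -0.38 and -0.52, and ERG12, mevalonate kinase, gave -0.38, -0.21 and -0.98. These 2 genes were, like MVD1, below 0 on all 3 arrays, with means of -0.60 and -0.52 and adjusted p of 0.156 and 0.231 (limma).

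The other mevalonate genes changed sign between arrays. HMG1, the HMG-CoA reductase that carries most of the flux in aerobic cells, gave -0.05, -0.69 and 0.07, with a 95% interval of -0.89 to 0.45. ERG10, acetoacetyl-CoA thiolase, gave -0.70, 0.43 and 0.67, so that array 1 stood apart from the other two. ERG8, phosphomevalonate kinase, gave 0.03, 0.44 and -0.72. IDI1, isopentenyl diphosphate isomerase, was the most scattered of the step at 0.72, -0.06 and -1.04, an SD of 0.88. ERG20, farnesyl pyrophosphate synthase, gave -0.13, 0.92 and -0.63 and had the highest value on array 2 of all tested members. The adjusted p of these 5 genes ran from 0.619 to 0.931 (limma), and the 95% intervals of all 5 lay within a 2-fold change.

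The genes from farnesyl pyrophosphate through squalene to lanosterol had the lowest median of the pathway. Each of the 3 was below 0 on all 3 arrays, against 30.6% of all genes. One of them, ERG7, was called, against 9.64% of all genes called lower. The medians were -1.17, -0.90 and -0.95 on arrays 1, 2 and 3, and -0.87 over the means. ERG9 (YHR190W), squalene synthase, which commits farnesyl pyrophosphate to sterols, gave -1.17, -0.02 and -1.41. It was near 0 on array 2 and more than 2-fold lower on the others, with a mean of -0.87 ± 0.74 (SD, n = 3; adjusted p = 0.118, limma), and without array 2 a mean of -1.29 (adjusted p = 0.0193, limma). ERG1 (YGR175C), squalene epoxidase, the oxygen-using enzyme that terbinafine inhibits, gave -0.67, -0.90 and -0.06. Its mean was -0.54 ± 0.43 (SD, n = 3; adjusted p = 0.222, limma).

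**Figure D2:**
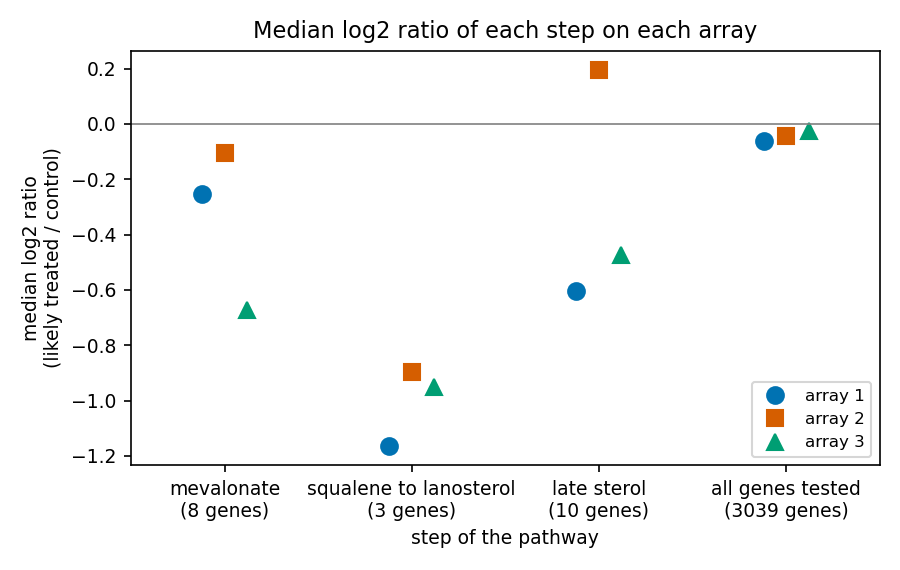
Median log2 ratio (likely treated over control, vertical axis) of the tested genes of each pathway step and of all genes tested, with a symbol for each array. The squalene to lanosterol genes have medians of -1.17, -0.90 and -0.95 and lie below the mevalonate and late sterol genes on every array, and the late sterol median is above 0 on array 2.

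The late sterol steps, from lanosterol to ergosterol, had 10 tested genes, of which 0 passed, beside 9.64% called lower and 8.36% higher among all genes. All 10 had a mean below 0, against 52.3% of all genes. Their median was -0.22 and their means ran from -0.78 to -0.07. The array medians were -0.60, 0.20 and -0.47, so array 2 lay on the other side of 0. Without array 1 the means of ERG24, ERG26, ERG27 and ERG3 turned above 0, leaving 6 of 10 below, and the median of the means was -0.06. Without array 2 that median was -0.47 and 9 of the 10 means were below 0, and without array 3 it was 8 of the 10. The squalene to lanosterol median lay below the mevalonate median by 0.91, 0.79 and 0.28 on arrays 1, 2 and 3, and below the late sterol median by 0.56, 1.09 and 0.48. The late sterol median was 0.35 below the mevalonate median on array 1 and above it on arrays 2 and 3, by 0.30 and 0.20. Since the genes were grouped with earlier results known and 3 genes make up the middle step, these differences are descriptions with no test.

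ERG25 (YGR060W), the sterol methyl oxidase that starts removal of the paired methyl groups of the ring, was the most even of the late genes. It gave -0.82, -0.56 and -0.95, a mean of -0.78 ± 0.20 (SD, n = 3; adjusted p = 0.0845, limma). Its partners in that demethylation complex were not below 0 throughout. ERG26, the decarboxylating dehydrogenase, gave -0.40, 0.52 and -0.52, ERG27, the ketoreductase, gave -0.78, 0.64 and -0.62, and the scaffold gene ERG28 gave -0.13, 0.24 and -0.43. All 3 were thus above 0 on array 2 alone. ERG4 (YGL012W), which catalyses the last reduction to ergosterol, had the lowest single value of the late genes, -1.71 on array 1, with 0.01 on array 2 and -0.64 on array 3. The mean of ERG4 was -0.78 ± 0.87 (SD, n = 3; adjusted p = 0.174, limma), and without array 2 it was -1.17 (adjusted p = 0.0433, limma).

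ERG6, the sterol methyltransferase that gives ergosterol its fungal side chain, gave -0.46, 0.38 and -0.58. ERG3, the desaturase whose loss protects yeast from azole drugs, gave -0.75, 0.73 and -0.19. Both had array 2 above 0 and the other arrays below. ERG24, the reductase that acts just after Erg11, gave -1.07, 0.15 and 0.24, with array 1 alone below 0. ERG2, the sterol isomerase, gave -0.27, -0.75 and -0.0002, and ERG5, a cytochrome P450 desaturase, gave -0.17, -0.26 and 0.21. For these 5 genes the adjusted p ran from 0.421 to 0.905 (limma), and the intervals of ERG6 (-0.93 to 0.49), ERG3 (-0.87 to 0.73) and ERG5 (-0.70 to 0.56) lay within a 2-fold change.

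**Figure D3:**
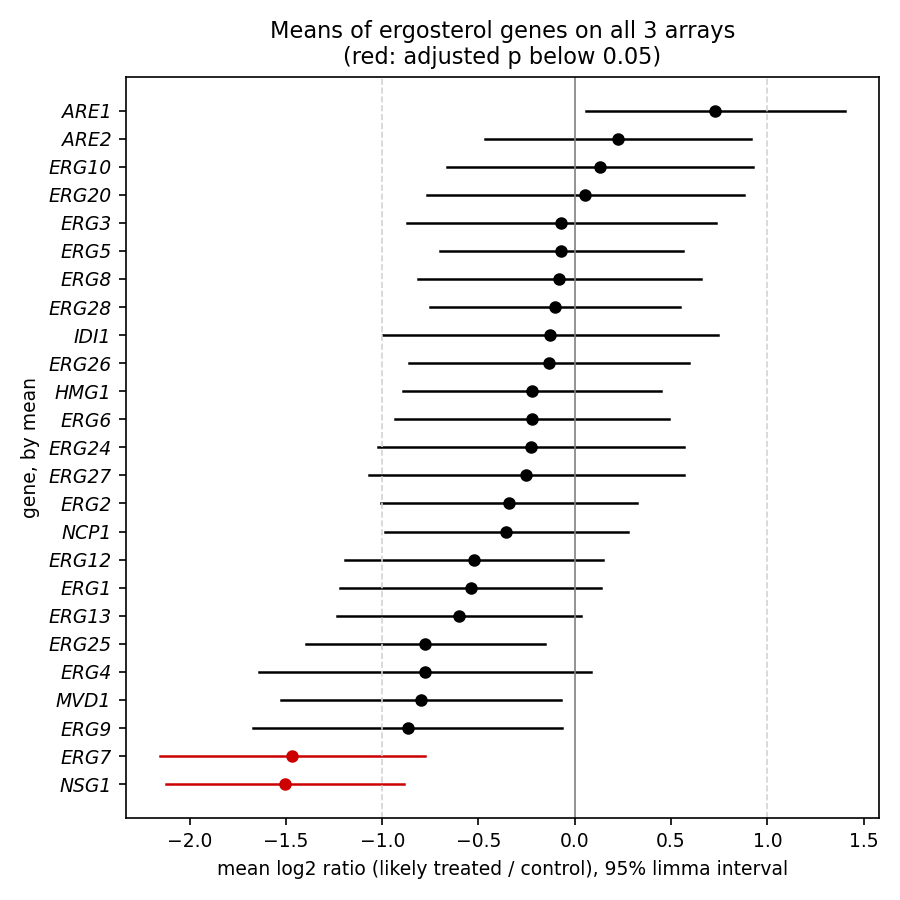
Mean log2 ratio over 3 arrays (points, horizontal axis) with its 95% limma interval (lines) for the 25 ergosterol genes tested, ordered by mean, with dashed lines at a 2-fold change either way. The intervals of NSG1 and ERG7, in red, are the furthest from 0, and 12 intervals lie between the dashed lines.

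The pattern of a value below 0 on arrays 1 and 3 and above 0 on array 2 was shown by 7 of the 25 tested members (28.0%), against 9.02% of all genes. These 7 were ERG20, ERG4, ERG6, ERG3, ERG26, ERG27 and ERG28, with ERG4 at only 0.01 on array 2. The pattern was not planned beforehand and was picked out from these same values. It is a description of genes that share the same arrays, with no test. Compared with the mean of arrays 1 and 3, array 2 was higher for 7 of 8 mevalonate genes and 8 of 10 late sterol genes, against 48.2% of all genes, and for 1 of 3 squalene to lanosterol genes. The median offset of array 2 was 0.46 for the mevalonate genes, 0.73 for the late genes and -0.03 for all genes. NSG1, ERG7 and 8 other members were below 0 on all 3 arrays. These 10 were 40.0% of those tested, against 30.6% of all genes. They include ERG2 at only -0.0002 on array 3 and ERG9 at only -0.02 on array 2. What set array 2 apart was not tested. Over the 25 members the Pearson r was 0.459 between arrays 1 and 3 (Spearman rho 0.391), 0.374 between arrays 1 and 2 (0.273) and 0.249 between arrays 2 and 3 (0.152), a description over genes measured on the same arrays.

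**Figure D4:**
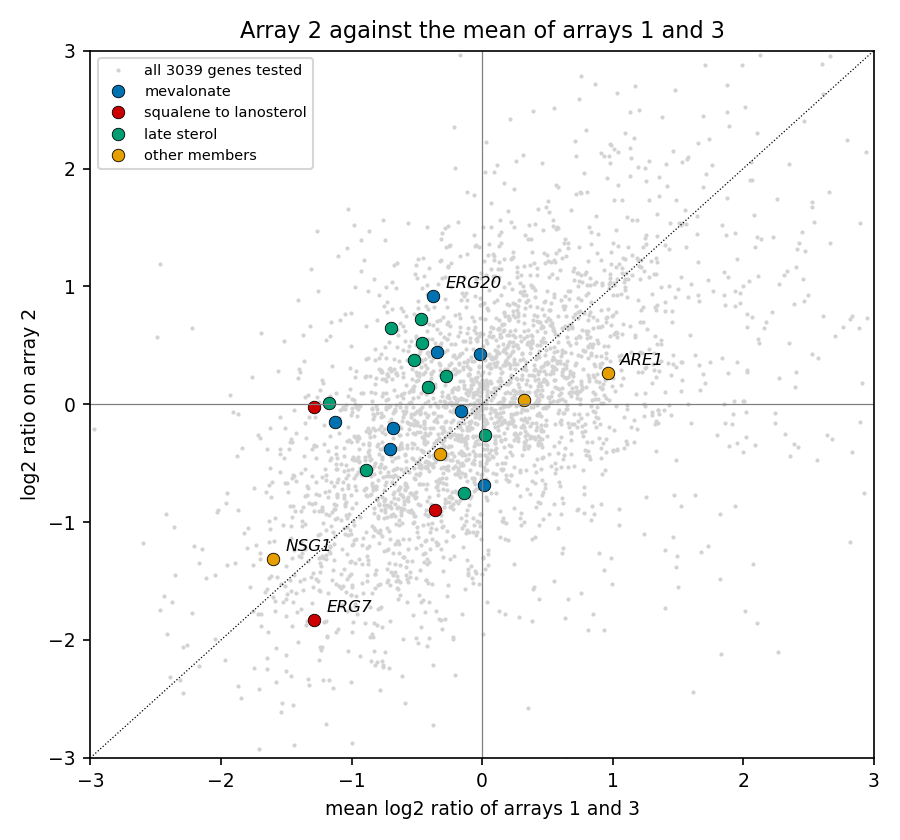
Log2 ratio on array 2 (vertical axis) against the mean log2 ratio of arrays 1 and 3 (horizontal axis) for all 3039 genes tested (grey, 47 of them outside the axes) and the 25 ergosterol genes (coloured by step), with a dotted line where both are equal. Late sterol and mevalonate genes lie mostly above the dotted line, NSG1 lies 0.29 above it and ERG7 lies 0.55 below it.

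The electron donor genes serve the cytochrome P450 and desaturase steps. NCP1 (YHR042W), NADPH-cytochrome P450 reductase, gave -0.55, -0.43 and -0.08, a mean of -0.35 ± 0.24 (SD, n = 3; adjusted p = 0.377, limma). CYB5 (YNL111C), cytochrome b5, had no value on array 1 and gave -1.12 and -0.96 on arrays 2 and 3. In the fit over the 5043 genes with values on at least 2 arrays its mean was -1.04 ± 0.11 (SD, n = 2; adjusted p = 0.1, limma). That fit called 5.83% of genes lower and 5.39% higher, and NSG1 and ERG7 were again the only members among its calls.

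The storage genes ARE1 and ARE2 encode the acyltransferases that make steryl esters, and they had the highest means of the tested members. ARE1 (YCR048W) gave 0.85, 0.27 and 1.07. It was the only tested member above 0 on all 3 arrays, a pattern that 25.8% of all genes shared. Its mean was 0.73 ± 0.42 (SD, n = 3; 1.66-fold; 95% interval 0.06 to 1.40; adjusted p = 0.117, limma). ARE2, whose enzyme makes most of the steryl ester in aerobic cells, gave -0.12, 0.03 and 0.76, a mean of 0.22 ± 0.47 (SD, n = 3; adjusted p = 0.626, limma). ARE1 was above ARE2 on every array, by 0.97, 0.23 and 0.31. The steryl ester hydrolase and sterol acetylation list had 2 tested genes of 5, with TGL1 at -0.12 and SAY1 at -0.01. Of these 0 were called, beside 9.64% lower and 8.36% higher among all genes, so the count says little.

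Of the regulators only NSG1 had a value on all 3 arrays. UPC2 (YDR213W), the main activator of sterol genes and itself raised by sterol shortage, had no value on array 1 and gave 0.09 and 1.62 on arrays 2 and 3. The gap between these 2 values was larger than their mean of 0.85 (adjusted p = 0.25, limma, genes on at least 2 arrays). ECM22 (YLR228C), its paralog, had no value on array 2 and gave -0.99 and -0.42 on arrays 1 and 3 (adjusted p = 0.242, limma, same fit). On array 3, the only one with both, UPC2 was above ECM22 by 2.04. SUT1, a factor of sterol uptake under low oxygen, gave -0.15 and 1.02 on arrays 2 and 3, and MOT3, a repressor of sterol and hypoxic genes, gave -0.74 and 0.33. UPC2, SUT1 and MOT3 were each higher on array 3 than on array 2. None of the 4 factors was called (adjusted p from 0.242 to 0.779, limma, same fit). That fit called 5.83% of its genes lower and 5.39% higher.

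Genes around the pathway were described from lists that were likewise drawn up with earlier results known. Of 15 tested genes of sterol uptake, transport and the anaerobic cell wall, 2 were higher and 0 lower, with a median of -0.01, beside 8.36% higher and 9.64% lower among all genes. PRY1, a secreted sterol-binding protein, gave 2.31, 0.65 and 2.01, a mean of 1.66 (adjusted p = 0.0273, limma). NPC2, the counterpart of a human lysosomal sterol carrier, gave 1.32, 1.07 and 0.75, a mean of 1.05 (adjusted p = 0.0403, limma). Both were above 0 on all 3 arrays. AUS1, the sterol importer induced by Upc2, gave 0.59, -0.40 and 1.03 (adjusted p = 0.425, limma), and DAN1, a cell wall gene of anaerobic growth, gave -0.02, 0.20 and 0.71 (adjusted p = 0.481, limma). Neither passed, and neither was above 0 on every array. Of other cell wall genes on the list, TIR3 gave 0.89, 0.003 and 1.60 and TIR1 gave -1.61, 0.17 and -0.035. These were not called either, at adjusted p of 0.138 and 0.402 (limma). Over the 15 tested genes 9 means lay below 0 and 6 above. The lowest means, also not called, were those of YSP2 at -0.77, OSH7 at -0.77 and KES1 at -0.67.

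Of 9 tested genes of HMG-CoA reductase turnover and sterol sensing, 1 was lower and 0 higher, with a median of 0.07. Among all genes 9.64% were called lower and 8.36% higher. The lower gene was SPF1, an ATPase of the endoplasmic reticulum needed for regulated Hmg2 degradation, at -1.19, -1.27 and -0.87 (mean -1.11; adjusted p = 0.0318, limma). The ubiquitin ligase genes of the same degradation route, HRD1 and HRD3, had means of 0.23 and 0.18 and were not called. Of 7 tested genes of other isoprenoid branches 0 passed, beside the same 9.64% lower and 8.36% higher among all genes. The prenyltransferase subunit genes RAM2 at 0.48 and RAM1 at -0.41 had the largest absolute means. The last small list, with DAP1, a haem-binding partner of Erg11, at -0.09 and PGC1 at 0.62, had 3 tested genes and 0 calls. At these shares of all genes, 0 calls in lists this short says little.

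A list for oxygen and haem regulation mixed regulators, such as HAP1 and TUP1, with other genes. Of its 14 tested genes 2 were higher and 1 was lower, beside 8.36% and 9.64% of all genes. HEM13, an oxygen-using enzyme of haem synthesis, gave -1.49, -1.17 and -1.29, a mean of -1.31 ± 0.16 (SD, n = 3; adjusted p = 0.0213, limma). NCE103, carbonic anhydrase, gave 3.60, 1.16 and 2.61 (mean 2.46; adjusted p = 0.0177, limma). COX5B, the hypoxic form of a cytochrome oxidase subunit, gave 1.64, 1.10 and 0.99 (mean 1.25; adjusted p = 0.0272, limma). These 3 genes kept their sign on every array, and over the 14 genes 8 means lay below 0 and 6 above. Like NSG1 and ERG7, the called genes of these lists (PRY1, NPC2, SPF1, HEM13, NCE103 and COX5B) lost their calls without array 1 or without array 3.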

How the data were processed

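Messenger RNA was measured on 3 two-colour arrays, treated over control, 1 group. The deposited values are log ratios, taken as log2. Per the labels' description, the authors used spots with flag value 0 in a LOWESS normalisation. How the background was corrected, and with which image software, is not given in the sources used here. A value of 6.89, the highest, would be a ratio of 7829462 in base 10, 986.1 as a natural log and 118.9 in base 2. No intensities were used, so whether a spot was dim or saturated is unknown, and the number of arrays limits the precision.

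Of 6272 spots, 5308 had 1 symbol, 0 several and 964 none in the platform annotation, and 5304 matched the RefSeq gene table of assembly R64. Spots of a gene were averaged. The fit used limma 3.58.1 (R 4.3.3, intercept only, eBayes, prior degrees of freedom 5.31, residual 2, two-sided, Benjamini-Hochberg over 3039 genes). It was also run on simulated data with independent normal noise for each gene and array. That run checked the code only, since it held no difference in quality between arrays. Members and lists were chosen with earlier results of these data known. All members are given, and of other lists the called genes, or with none the 2 largest absolute means. NSG2, AUS1, DAN1, TIR3, TIR1, YSP2, OSH7, KES1, HRD1 and HRD3 were added with their values known. The alternatives tried were centring, scaling, robust variance, array weights, genes on at least 2 arrays, a 1.5-fold null, a threshold of 0.01, medians over spots and leaving out each array.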

Additional observations from a re-analysis of the deposited data

How the results depend on the processing

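No member was called higher under any alternative run. The count of lower members, 2 as reported, stayed at 2 with centred arrays, scaled arrays, a robust variance, medians over spots and genes on at least 2 arrays. It was 5 with array weights (MVD1, ERG9 and ERG25 added), 0 in a test against a 1.5-fold change, 0 at an adjusted p below 0.01, and between 0 and 5 when 1 array was left out, with 0 without array 1 or array 3 and 5 without array 2 (MVD1, ERG9 and ERG4 added). Over all genes the 1.5-fold test called 29 higher and 16 lower, against 254 and 293. The number of all genes passing at 0.01 was not counted. At that threshold the called genes of the other lists (PRY1, NPC2, SPF1, HEM13, NCE103 and COX5B) lost their calls too. Lower calls over all 3039 genes also rose, from 293 to 429 with array weights and to 366 without array 2. The squalene to lanosterol median, -0.87, was -1.03 with array weights and from -1.28 to -0.72 with 1 array left out. The medians of the mevalonate steps (-0.38 to -0.21), late sterol steps (-0.47 to -0.06) and all members (-0.42 to -0.255) kept their sign with 1 array left out.

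For 12 of the 23 members not called, the mean changed sign under some alternative. With 1 array left out it ran from -0.14 to 0.55 for ERG10, -0.37 to 0.012 for HMG1, -0.34 to 0.24 for ERG8, -0.55 to 0.33 for IDI1, -0.38 to 0.39 for ERG20, -0.46 to 0.19 for ERG24, -0.46 to 0.062 for ERG26, -0.70 to 0.011 for ERG27, -0.28 to 0.057 for ERG28, -0.47 to 0.27 for ERG3, -0.21 to 0.024 for ERG5 and -0.043 to 0.40 for ARE2. With array weights ERG10, IDI1 and ERG20 stood at -0.072, 0.038 and -0.084, and with scaled arrays ERG3 stood at 0.0034. Of other genes, SAY1 ran from -0.086 to 0.038 and DAP1 from -0.30 to 0.12 with 1 array left out, SAY1 was 0.034 and 0.040 with centred and scaled arrays, and DAP1 was 0.042 with array weights. The cause of these changes was not tested. The 3 arrays form 1 group and each holds its own control, so the test of the mean log2 ratio against 0 already uses that pairing.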

Other observations

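The genes next to the called members in the RefSeq order were not called lower where they had values. WSS1, beside NSG1, gave -0.31, 0.13 and -0.08 (adjusted p = 0.845, limma). PCL5, a cyclin gene beside ERG7, gave 3.60, 0.74 and 3.64 and was higher (adjusted p = 0.0235, limma). The neighbours on the other sides, IGO2 and NOP10, were not analysed here. Both members lie on chromosome VIII.

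Grouped by chemistry after the values were seen, the 4 measured oxygen-using enzymes of the route (ERG1, ERG25, ERG3 and ERG5) had median log2 ratios of -0.71, -0.41 and -0.12 on arrays 1, 2 and 3. The 4 genes of ring demethylation (ERG25, ERG26, ERG27 and ERG28) had -0.59, 0.38 and -0.57.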
